A study of Mus musculus with 6 samples.

Results

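The coagulation cascade genes F2, F5, F7, F9, F10, F11, F12 and Klkb1 and the anticoagulant genes Proc and Serpinc1 were followed in mouse liver by RNA sequencing. They were taken by gene symbol, and all 10 were among the 15953 genes of the deposited table and passed the filter on low counts. The samples were livers of C57BL/6 mice, 3 wild type and 3 labelled Cgref1 KO, with no treatment, age, deletion site or feeding state named. The labels give both liver tissue and hepatocytes. Hepatocyte genes were the most abundant of the cell type lists (9 markers, 54409 to 77523 TPM summed per library). Erythroid genes came next (6 markers, 4859 to 11318 TPM). Genes of Kupffer cells (276 to 336 TPM) and sinusoidal endothelium (182 to 218 TPM) were also counted in all libraries. In such RNA, fewer cells of a type and less RNA per cell cannot be told apart. Library totals were 17627734 to 18366443 estimated counts. Counts of Cgref1 itself were low in both genotypes, at 7, 7 and 19 (wild type) against 7, 12 and 10 (KO-labelled). Cgref1 fell below the filter on low counts. A separate edgeR fit with Cgref1 added gave a log2 fold change of -0.11 (SE 0.50, edgeR adjusted p 0.994). The genotype therefore rests on the labels. Genes of gut tissue also stood out in part of the wild type group. Fabp2, Anpep and Apoa4 were left out, as all livers expressed them. The other 11 intestinal markers in the table gave 189 (replicate 1), 57 (replicate 2) and 312 (replicate 3) reads there. The KO-labelled livers gave 39, 24 and 27. Lgals4, 1 of the 11, was also counted in all livers, with 33, 47 and 75 of these reads (wild type) and 39, 24 and 24 (KO-labelled). It thus made up all or most of the reads in KO-labelled livers.

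Most clotting factors are made by hepatocytes and circulate as inactive precursors that cut and activate one another. Tissue factor with factor VII starts the extrinsic arm, and factor XII, plasma kallikrein (Klkb1), factor XI and factor IX form the contact and intrinsic arm. Both arms meet at factor X, which with factor V turns prothrombin (F2) into thrombin. Protein C (Proc), once activated, inactivates factor V, and antithrombin (Serpinc1) blocks thrombin and factor X. Prothrombin, factors VII, IX and X and protein C need a vitamin K-dependent carboxylation before they leave the cell.

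Transcript levels of the 10 genes spanned a wide range that was alike in all libraries. On the deposited TPM scale, a share of all transcripts that is corrected for transcript length, Serpinc1 was the most abundant with a mean of 1584 TPM (1351 to 1765 over the 6 libraries). F2 followed at 1031 TPM (954 to 1139). Proc stood at 340.2 TPM (299 to 388) and F12 at 308 TPM (265 to 349). F10 had 173 TPM (158 to 187) and F9 103 TPM (91.9 to 120.2). The cofactor gene F5, at 75 TPM (67.4 to 84.6), and Klkb1, at 74 TPM (65.8 to 83.8), were nearly level. F7 at 49.7 TPM (40.3 to 56) and F11 at 42.7 TPM (33.3 to 52.1) were the lowest. The ranges of neighbours in this order overlapped for Proc and F12, for F5 and Klkb1 and for F7 and F11, and stood apart for the other 6 neighbouring pairs. Proc was above F12 within each of the 6 libraries, whereas F5 was above Klkb1 in 3 of them and F7 above F11 in 5. The ratio of Serpinc1 to F11 ran from 28.6 to 53 within a library. Together the 10 genes made up 0.339% to 0.414% of all TPM, and Serpinc1 and F2 took 67.8% to 71.2% of that sum.

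**Figure D1:**
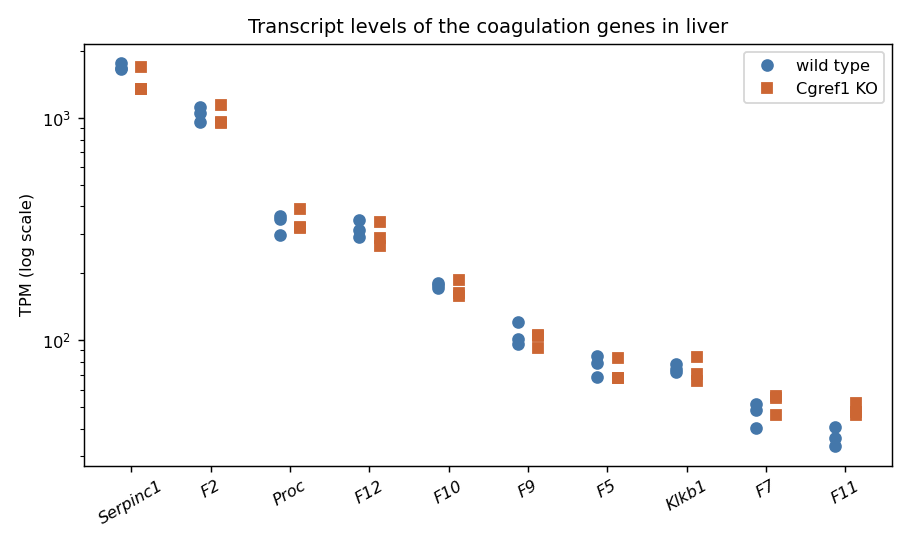
TPM (log axis) of each coagulation gene in the 3 wild type (circles) and 3 KO-labelled (squares) libraries, in the order of the mean. Levels fall from 1584 TPM for Serpinc1 to 42.7 TPM for F11, and only F11 shows KO-labelled livers wholly above wild type on this scale.

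The comparison of the groups asks whether these levels differed between wild type and KO-labelled livers. With edgeR's quasi-likelihood test over 12033 genes, 0 of the 10 members passed an adjusted p of 0.05, where 1 gene in all passed (0.00831% of those tested). At an unadjusted p under 0.05 there were 2 members higher (F11 and F7) and 0 lower, beside 5.15% of all genes tested (2.95% higher, 2.2% lower). DESeq2 called 1 member, F11, among 28 genes (0.233%), and limma-voom called 0 members among 1 gene. The groups did not overlap for the same 2 members, both higher, beside 6.19% of all genes tested higher and 4.63% lower. The median log2 fold change of the 10 members was 0.09, and that of all genes tested was 0.00. These values are on CPM (counts relative to the library total) scaled by TMM, which sets the bulk of genes equal between libraries. With TPM the median of all genes moved to -0.11 and that of the members to -0.05. The sign of a small change thus followed the scaling. Under each setting that kept all 6 libraries, 9 of 10 members lay above the median of all genes. A change of scaling moves all genes nearly alike, so the scaling settings could hardly alter that count. With 1 library left out of the edgeR fit, it was 7 without wild type replicate 1 or KO-labelled replicate 1. It was 8 without wild type replicate 2 and 9 in the other such fits.

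F11, which encodes factor XI, the protease that activates factor IX, showed the largest difference of the 10. It occupies bases 45240659 to 45262050 of chromosome 8 (GRCm38). Wild type livers gave 962, 1193 and 1037 reads for F11, KO-labelled livers 1504, 1420 and 1478. Scaled to CPM, these were 53.1, 63.4 and 56.6 against 87.7, 82.5 and 81.4. Each KO-labelled liver was above each wild type library. The means were 57.7 ± 5.24 and 83.9 ± 3.35 CPM (SD, n = 3), a fold of 1.45 with a 95% interval of 1.25 to 1.69. The log2 fold change was 0.54 (SE 0.10) with an unadjusted p of 0.000266, rank 7 among the genes tested, and an edgeR adjusted p of 0.341. DESeq2 gave 0.53 (SE 0.12) and an adjusted p of 0.0102, limma-voom an adjusted p of 0.515. The authors' deposited values for F11, a log2 fold change of 0.54 and a q-value of 0.0118, also come from DESeq2 on these 6 libraries. They are thus not a separate result. An exact permutation test over the 6 libraries, two-sided, gave 0.1, the smallest p that 3 against 3 allows. F11 also stood apart on the TPM scale, at 33.3, 40.9 and 36.4 against 52.1, 46.3 and 47.4 TPM. The size of the difference was steady, with a log2 fold change of 0.48 to 0.62 when 1 library was left out, but the call was not. DESeq2 with 1 library left out, a check chosen after seeing the data, called F11 in 3 of 6 fits (adjusted p 0.000878 to 0.15) and lost it without wild type replicate 1, wild type replicate 3 or KO-labelled replicate 2. With both livers of the most intestinal reads removed (wild type replicates 1 and 3), F11 had a DESeq2 log2 fold change of 0.40. Only 1 wild type library then remained, assumed to vary like the KO-labelled ones, so the adjusted p of 1.0 says little about the call. The part of those reads in the result was not tested. The 3 genes whose CPM followed F11 most closely over the 6 libraries were Ces3a (Pearson r 0.988), Dad1 (0.984) and Tcta (0.981), out of 11328 compared. This likeness rests on 6 points that share the split between the groups.

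Klkb1, the gene for plasma prekallikrein, is the neighbour of F11 on chromosome 8 (45266688 to 45294835) and a relative of it by gene duplication. It had 273, 277 and 254 CPM (wild type) against 317, 290.4 and 259 CPM (KO-labelled). The groups overlapped, with KO-labelled replicate 3 below wild type replicates 1 and 2. The log2 fold change was 0.11 (SE 0.10, edgeR adjusted p 0.988), a fold of 1.08 (0.917 to 1.27). A ratio of both genes within a library does not depend on scaling. F11 had 0.195, 0.229 and 0.222 counts per Klkb1 count (wild type) and 0.277, 0.284 and 0.315 (KO-labelled). The ratio was thus higher in each KO-labelled liver, by 0.44 on the log2 scale (exact permutation p 0.1, the smallest possible, two-sided). It ran from 0.37 to 0.49 when 1 library was left out and was 0.35 without wild type replicates 1 and 3. Of the 9 ratios of F11 to another member, 9 separated the groups. Such separation was common, as 12 of the 36 ratios between the other members also separated them. The genes around F11 were also compared between the groups. Of 7 genes within 250 kb, all tested and Klkb1 among them, 0 were called by edgeR and 0 had an unadjusted p under 0.05, with log2 fold changes from -0.37 to 0.19.

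Sequence shared with other genes was counted, since it can move reads between genes. In the GENCODE M21 transcripts none of the 2191 runs of 50 bases in the F11 transcript occurred in a transcript of another gene (0 runs). The same held for F2, F5, F7, F9, F12, Proc and Serpinc1. In F10, 1.92% of the runs were shared. In Klkb1 42.7% were shared with transcripts of other genes, among them Gm45753, a gene model that overlaps Klkb1 and is not among the genes analysed here. Klkb1 values therefore carry some uncertainty.

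**Figure D2:**
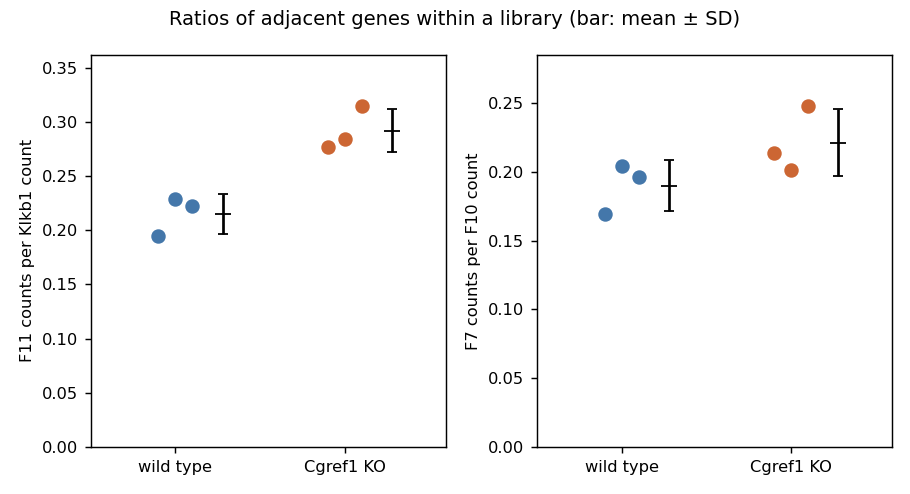
Counts of F11 per Klkb1 count (left) and of F7 per F10 count (right) in each library, with mean ± SD beside the points. The F11 ratio separates the groups (0.195 to 0.229 against 0.277 to 0.315), while the F7 ratio of one KO-labelled liver (0.201) lies within the wild type range.

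The promoter sequences of F11 and F9, the substrate of factor XI, are shown because their windows, of the 9 members with a RefSeq window, held matches to more than 1 of 3 liver factor motifs. The windows run from 250 bases before to 50 after the RefSeq start (GRCm38.p6), both strands were searched, and the 250 bases before the start are given 5′ to 3′ on the gene's strand with the matches in capitals. F11 is at chr8:45262032-45262281 on the minus strand and F9 at chrX:59999214-59999463 on the plus strand.
F11: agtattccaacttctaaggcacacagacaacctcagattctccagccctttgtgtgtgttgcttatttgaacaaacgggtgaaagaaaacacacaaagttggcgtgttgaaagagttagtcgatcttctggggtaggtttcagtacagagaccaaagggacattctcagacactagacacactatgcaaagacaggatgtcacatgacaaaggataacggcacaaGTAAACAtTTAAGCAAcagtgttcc
F9: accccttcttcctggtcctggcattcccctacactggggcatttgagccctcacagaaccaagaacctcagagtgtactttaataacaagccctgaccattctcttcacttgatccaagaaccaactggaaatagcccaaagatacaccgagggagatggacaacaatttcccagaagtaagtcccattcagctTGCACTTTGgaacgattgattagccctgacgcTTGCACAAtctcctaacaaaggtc
In F11 the capitals mark GTAAACA, a match to the FOXA motif TGTTTAC, and TTAAGCAA, a match to the C/EBP motif TTGCNNAA. In F9 they mark TGCACTTTG, a match to the HNF4A motif CAAAGTNCA, and TTGCACAA, a C/EBP match. The last 19 bases of the F11 window lie within F11 as placed above. They hold its C/EBP match and the end of its FOXA match. The FOXA letters occurred in 3.65% of all 32851 promoter windows, the C/EBP letters in 10.8% and the HNF4A letters in 1.41%. Klkb1 held 1 FOXA and 1 C/EBP match, like F11, in a window that exons of Gm45753 overlap, so it is not printed. Serpinc1 held 1 C/EBP match, and the windows of F2, F5, F7, F10 and F12 held none of the 3 motifs. The F7 window (13025784 to 13026083) lies inside the gene as placed here, from 13025506. The bases before that position were thus not searched for F7. The motif matches describe letters only and did not sort the members by their change.

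F9 did not follow F11. It had 224, 174 and 182 CPM (wild type) against 204, 216 and 184 CPM (KO-labelled), so that the highest value was that of a wild type library. The log2 fold change was 0.06 (SE 0.12, edgeR adjusted p 0.992), or 1.04-fold (0.866 to 1.25). F12, the gene for the contact factor that activates factor XI, stood at 381, 443 and 397 CPM against 459, 389 and 404 CPM. Its groups overlapped, with a log2 fold change of 0.04 (SE 0.11, edgeR adjusted p 0.994) and an interval of 0.868-fold to 1.21-fold.

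F7, which starts the extrinsic arm with tissue factor, was the other member whose groups did not overlap on the CPM scale. Its counts were 890, 1152 and 1052 (wild type) against 1211, 1085 and 1318 (KO-labelled), or 49.1, 61.2 and 57.4 CPM against 70.6, 63.1 and 72.6 CPM. The gap between the closest libraries was small. The means of 55.9 ± 6.18 and 68.8 ± 5.03 CPM (SD, n = 3) gave a log2 fold change of 0.30 (SE 0.11) and an interval of 1.04-fold to 1.46-fold. The edgeR unadjusted p was 0.0212 and the adjusted p 0.918. DESeq2 did not call F7 here (adjusted p 1.0) or in the authors' deposited DESeq2 values from the same libraries (q-value 0.999). On the TPM scale its groups overlapped, at 40.3, 51.6 and 48.6 against 56, 46.1 and 55.2 TPM. F10 follows F7 on the same strand of chromosome 8 (F7 from 13025506 to 13035805, F10 from 13037308 to 13056676). The ratio of F7 to F10 counts was 0.169, 0.204 and 0.196 (wild type) against 0.214, 0.201 and 0.248 (KO-labelled), which overlapped (exact permutation p 0.2, two-sided). Of the 9 ratios of F7 to another member, 6 separated the groups, with the ratio to F11 lower in KO-labelled livers. Proc and Serpinc1, whose own groups overlapped, had the same count of 6, so it was not particular to F7. Of 8 tested genes within 250 kb of F7, F10 among them, 1 had an unadjusted p under 0.05 and 0 were called by edgeR. Their log2 fold changes ran from -0.09 to 0.39. The highest, that of Grtp1 (SE 0.13, edgeR unadjusted p 0.0131), was above that of F7.

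The common pathway differed little between the groups. F10 had 291, 300.4 and 293 CPM (wild type) against 330.0, 313 and 292 CPM (KO-labelled). Wild type was tight, and KO-labelled replicate 3 fell among its values. The fold was 1.06 (0.917 to 1.22; edgeR adjusted p 0.988). F5 had 361, 432 and 400.2 CPM against 450.4, 400.3 and 381 CPM, and the groups overlapped (1.03-fold, 0.871 to 1.22; edgeR adjusted p 0.992). Platelets also carry factor V. The 8 platelet markers summed to 15.5 to 26.1 TPM per library, most of it Clec1b (12 to 17.6 TPM), with Treml1 at 0 in part of the libraries. The part of platelets in the F5 values was not tested. F2 had 1289, 1471 and 1382 CPM against 1588, 1443 and 1391 CPM. Only KO-labelled replicate 1 exceeded the wild type range, and the fold was 1.07 (0.904 to 1.26; edgeR adjusted p 0.988).

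Of the anticoagulant genes, Proc had 308, 363 and 351 CPM (wild type) against 415, 369 and 361 CPM (KO-labelled). Knockout-labelled replicate 3 lay just under wild type replicate 2, so the groups overlapped. The log2 fold change of 0.16 (SE 0.11) had an edgeR adjusted p of 0.984 and an interval of 0.951-fold to 1.32-fold. Serpinc1 was the only member with a negative value on the TMM scale. It had 1908, 1759 and 1733 CPM against 1899, 1634 and 1576 CPM, with KO-labelled replicate 1 close to the highest wild type library. The log2 fold change was -0.08 (SE 0.11, edgeR adjusted p 0.988), a fold of 0.946 (0.794 to 1.13).

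For the 9 members other than F11, the 95% intervals reached from 0.794-fold to 1.46-fold. The lowest bound was that of Serpinc1 and the highest that of F7, the only one of the 9 whose interval lay above 1-fold. The 5 vitamin K-dependent members had log2 fold changes between 0.06 and 0.30, with a median of 0.09.

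**Figure D3:**
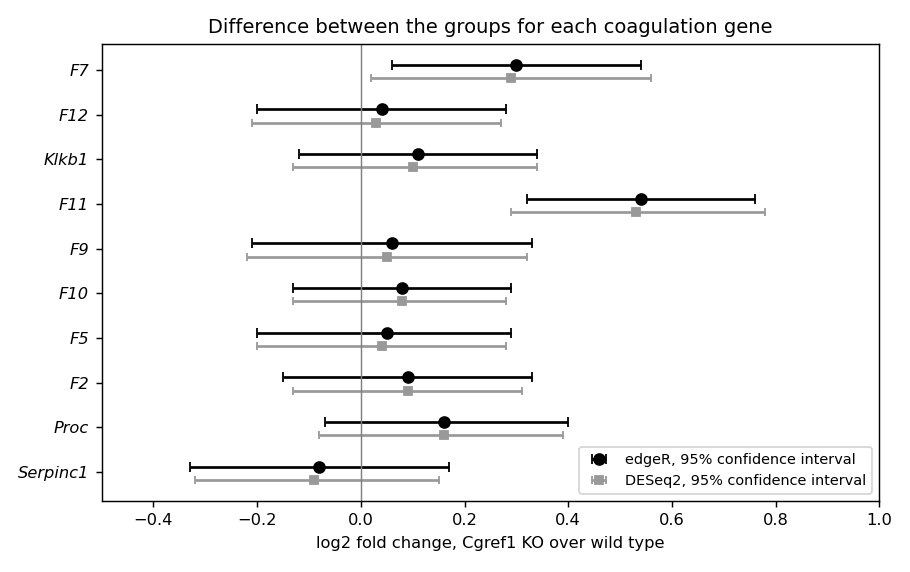
Log2 fold change of each coagulation gene, KO-labelled over wild type, from edgeR (circles) and DESeq2 (squares), each with its 95% confidence interval. F11 (0.54) and F7 (0.30) have edgeR intervals above 0, and the other 8 intervals include 0.

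Single libraries shaped several of these values. Wild type replicate 1 was the lowest of the 6 libraries for 7 of the 10 members and the highest for 2, F9 and Serpinc1. Knockout-labelled replicate 1 was the highest for 7 members. Over the 6 libraries, 37 of the 45 pairs of members had a positive correlation of their log2 CPM, with a median r of 0.56 (-0.48 to 0.96), as a description of points that share library and scaling. Leaving out KO-labelled replicate 1 brought the median log2 fold change of the members from 0.09 to 0.04 and turned F5 (-0.03) and F12 (-0.04) negative. Leaving out wild type replicate 1 turned the same genes negative (-0.03 and -0.02).

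**Figure D4:**
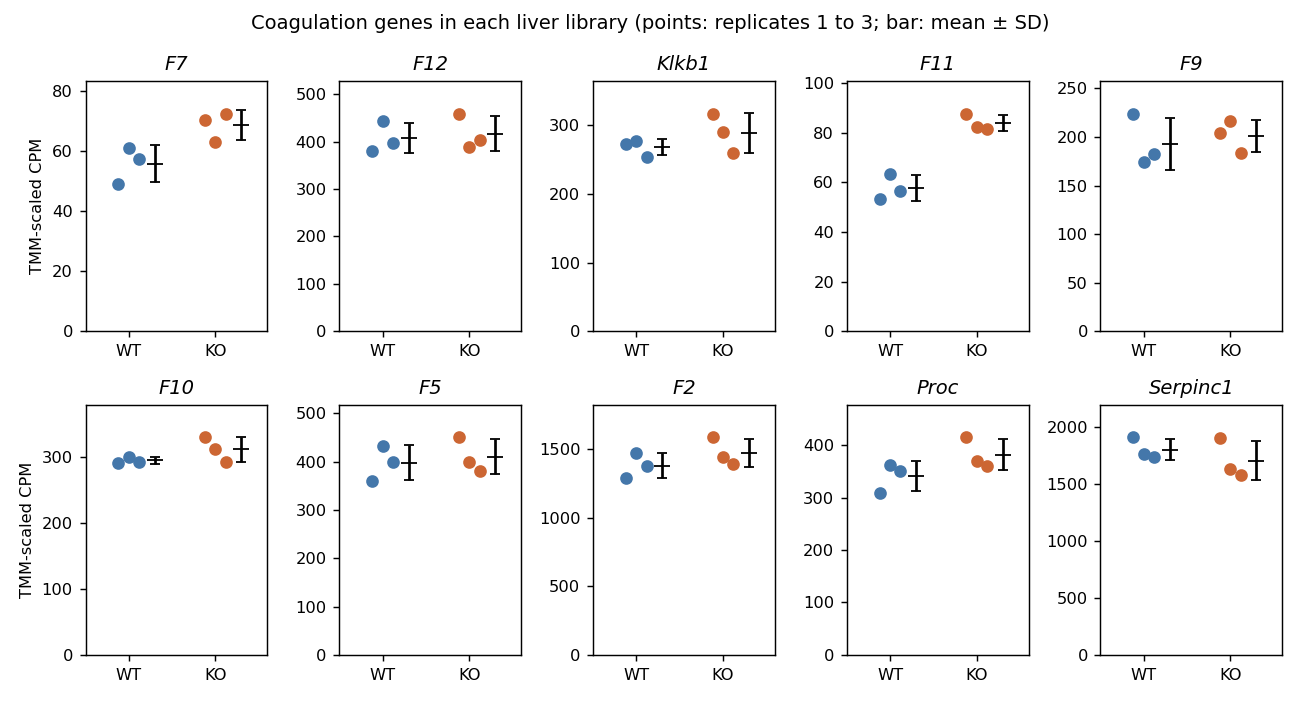
TMM-scaled CPM of each coagulation gene by library, each axis from 0, with the mean ± SD (n = 3) beside the points of replicates 1 to 3. The groups separate for F11 (53.1 to 63.4 against 81.4 to 87.7 CPM) and narrowly for F7, and overlap for the other 8 genes.

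The wider system was read from 42 further genes of coagulation, fibrinolysis and factor processing, of which 38 passed the filter. edgeR called 0 of them in either direction and DESeq2 called 0. At an unadjusted p under 0.05, 2 were higher and 0 lower, and the groups separated for 3, all higher (Serpina10, Pros1 and Thbd). Over all genes tested, 2.95% were higher and 2.2% lower at that p, and 6.19% separated upwards and 4.63% downwards. Counts as small as these were not read as a result about the list. The median log2 fold change was 0.04, with 23 positive and 15 negative values. F13a1, Serpina5, Plat and A2m were below the filter.

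Among fibrinogen, cofactor and activator genes, 0 of 11 tested genes passed and the median was -0.01. The fibrinogen chains Fgg and Fgb were the most abundant, with means of 2368 ± 441 and 2372 ± 391 TPM in wild type and 2149 ± 202 and 2080 ± 261 TPM in KO-labelled livers (SD, n = 3). Their log2 fold changes were -0.01 (SE 0.15) and -0.06 (SE 0.15). Hpn, the gene for the membrane protease hepsin, had 0.20 (SE 0.11), and Habp2, whose protease can activate factor VII, had 0.08 (SE 0.09). F8, the cofactor of factor IX made by endothelium, was low at 3.44 ± 0.382 and 2.97 ± 0.1 TPM (SD, n = 3), with a log2 fold change of -0.05 (SE 0.12).

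The inhibitor and anticoagulant genes had the highest median of the 4 roles, 0.11, with 9 of 11 tested genes positive and 0 called. Serpina10 encodes the protein Z-dependent protease inhibitor, which blocks factors X and XI. It had 128, 151 and 146 CPM (wild type) against 158, 208 and 203 CPM (KO-labelled), with no overlap. Its log2 fold change was 0.42 (SE 0.13), with an edgeR unadjusted p of 0.00817 and an adjusted p of 0.85, and DESeq2 gave an adjusted p of 0.469. Pros1, the gene for protein S, the cofactor of activated protein C, had 52.6, 52 and 56.4 CPM against 63.5, 68.6 and 61.5 CPM, again without overlap (log2 fold change 0.27, SE 0.09; edgeR adjusted p 0.903). Apoh and Hrg, the most abundant of this role, had -0.02 (SE 0.12) and 0.24 (SE 0.12). Proz, the partner of Serpina10 next to F10 on chromosome 8, had 0.03 (SE 0.09).

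Fibrinolysis genes had a median of 0.01, with 0 of 6 tested genes called. Plg, for plasminogen, had 0.14 (SE 0.11), Serpinf2, for the plasmin inhibitor, 0.19 (SE 0.13), and Cpb2, for a carboxypeptidase that slows clot lysis, 0.10 (SE 0.10). Vitamin K cycle and secretion genes had a median of 0.03, with 0 of 10 called. Vkorc1, the vitamin K epoxide reductase gene, stood at 399.8 ± 23.7 and 365 ± 25.4 TPM (SD, n = 3), and at a mean of 165 CPM in either group on the TMM scale. The factor V and factor VIII cargo receptor genes Lman1 and Mcfd2 had 0.13 (SE 0.10) and -0.01 (SE 0.11), and Nqo1 had -0.31 (SE 0.26).

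**Figure D5:**
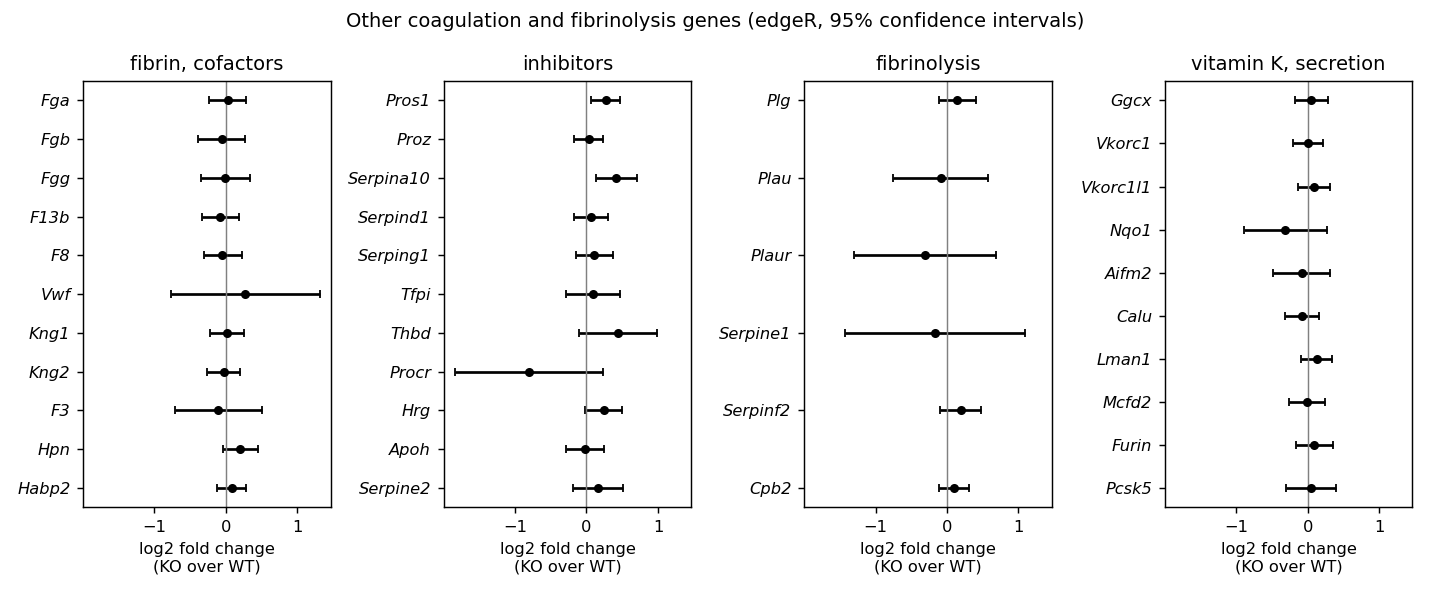
Log2 fold changes with 95% confidence intervals (edgeR, KO-labelled over wild type) of the 38 other tested genes in 4 roles. The intervals of Serpina10 (0.14 to 0.70) and Pros1 (0.07 to 0.47) lie above 0, and the other 36 include 0.

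Transcription factors of hepatocyte genes were given as a further list, with 0 of 14 called and a median of 0.03. Hnf4a and Cebpa, the most abundant, had log2 fold changes of 0.04 (SE 0.12) and -0.03 (SE 0.12). The nuclear receptor genes Nr1h4 (FXR) and Nr1i3 (CAR) had the smallest p-values of the list, at -0.25 (SE 0.10) and 0.33 (SE 0.15), with edgeR adjusted p of 0.935 and 0.947. Their groups did not overlap, which held for 10.8% of all genes tested in either direction. The values were 148, 149 and 179 against 139, 133 and 127 CPM for Nr1h4 and 49.5, 73 and 72.4 against 85.8, 77.1 and 82.7 CPM for Nr1i3. Their part in the values of F11 or F7 was not tested.

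The KEGG pathway of complement and coagulation in the deposited table, looked at after the members' values were known, held 92 genes, 74 of them tested. edgeR called 0 of the 74, and DESeq2 called 2, F11 and the terminal complement gene C8b (0.63, SE 0.13; DESeq2 adjusted p 0.00835, edgeR adjusted p 0.608). At an unadjusted edgeR p under 0.05, 11 were higher and 0 lower, and the groups separated upwards for 16 and downwards for 1. Over all genes tested these shares were 2.95% and 2.2% at that p, and 6.19% and 4.63% for separated groups. Of the 11, 8 belong to the 43 tested genes that are neither members nor in the wider list. Of 9 Kupffer cell markers, edgeR and DESeq2 called 0, although 9 had a positive log2 fold change (median 0.28) and 5 an unadjusted p under 0.05. The list shares complement C1q genes with this pathway. Their part in the pathway's count was not tested.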

How the data were processed

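RNA from 6 mouse livers (3 wild type, 3 Cgref1 KO) was sequenced. The authors deposited expected counts (not normalized), TPM values and FPKM values per gene and library, per the file headers, and their own log2 fold changes, p-values and q-values. HISAT, Bowtie2, RSEM and DESeq2 are named in the submitters' processing notes, without versions, and no genome build is named there. Chromosome names are those of GRCm38, and all 15803 genes matched by ID lay on the same chromosome in RefSeq GRCm38.p6. The strand column differed from RefSeq for 15.3% of 12568 genes, F2 and Klkb1 among them, so strands are RefSeq's. 15 columns of group means and comparisons of single libraries were not used.

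Counts were rounded, filtered by filterByExpr (minimum count 10; 12033 genes), scaled by TMM (0.955 to 1.05) and tested with edgeR 4.0.16 (R 4.3.3; robust quasi-likelihood F test, Benjamini-Hochberg over all genes, threshold 0.05). DESeq2 1.42.0 and limma 3.58.1 (voom, and trend on log2 of TPM or FPKM with a pseudocount of 1 or 0.1) were alternatives. Intervals are 95% and unadjusted. The steps were tested on simulated data. No label says that the replicate numbers pair animals, so they were not taken as pairs. Deviations of libraries with the same replicate number correlated at 0.27, 0.0553 and 0.328, each the best match in the other group. The labels call the replicates biological, and p-values measure the spread between these libraries. Promoters are from RefSeq (GRCm38.p6); 1 further motif searched is not reported here. The members and gene lists were chosen with earlier results of these data known. The text names all members and, for each further list, the 2 genes with the smallest p and the 2 with the highest TPM; others are examples chosen after their values were seen.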

Additional observations from a re-analysis of the deposited data

How the results depend on the processing

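The count of members called was 0 under each setting but DESeq2, which gave 1 (F11, 0.53) and, with 1 library left out, 0 to 1. There F11 had 0.61, 0.50 and 0.55 without wild type replicate 2, KO-labelled replicate 1 and KO-labelled replicate 3, where it was called. No gene of the wider list was called under the planned settings (0 genes), and 1 was called by DESeq2 without KO-labelled replicate 1. Over all genes, edgeR called 1, and the count was 28 with DESeq2, 0 at a mean of at least 5 CPM, 1 to 5 with 1 library left out. DESeq2 gave 8 (without KO-labelled replicate 3) to 99 genes (without KO-labelled replicate 1) with 1 library left out. Without wild type replicates 1 and 3 together edgeR called 0 genes, but 1 wild type library then stands for its group, assumed to vary like the others, and the count says nothing about stability. With the replicate number as a block (replicate block) edgeR called 34 genes and 0 members, with F11 at an adjusted p of 0.0615; each library correlated best with its own number in the other group, which is a hint from the data and not from the design. F7, F11, Proc and Serpinc1 kept their direction under 18 alternatives, with F11 at 0.39 to 0.62, F7 at 0.15 to 0.37, Proc at 0.03 to 0.22 and Serpinc1 at -0.22 to -0.03. The median of the members was 0.0045 with library totals, -0.05 with TPM (pseudocount 1 or 0.1) and 0.0019 with FPKM. Members near 0 changed sign: with TPM, at either pseudocount, F2 (-0.04), F5 (-0.09), F9 (-0.07), F10 (-0.06), F12 (-0.10) and Klkb1 (-0.03); with FPKM, F5 (-0.03), F9 (-0.02), F10 (-0.01) and F12 (-0.05). With library totals the same genes had F5 -0.04, F9 -0.02, F10 -0.0015 and F12 -0.05. Without wild type replicates 1 and 3 together F2 had -0.01, F5 -0.09 and F12 -0.10. With 1 library left out F5 ran from -0.03 to 0.12, F12 from -0.04 to 0.11 and F9 from -0.01 to 0.17. The order of the members by TPM held with FPKM, and 8 to 10 ranks held with 1 library left out. The lowest count of a member in a library was 890 (F7).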
